A study of Mus musculus with 4 samples.

Results

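Collagen chain genes, whose symbols have the form Col, a type number, the letter a and a chain number, accounted for 44 of the 24026 genes in the expression table of F123-ESCs. Membership was set by symbol only and used no measured value, though the set was chosen with earlier results of these data known. F123-ESCs are a male mouse embryonic stem cell line from a cross of inbred strains, in which the maternal copy of each autosome is S129 and the paternal copy is CAST, so that the 2 alleles of a gene can be told apart by SNPs. The cells were untreated and of genotype S129/CAST in all 4 libraries, which form 1 group. They had been kept on mitotically inactivated mouse embryonic fibroblasts, were then moved to gelatin without these feeder cells for at least 2 passages, and were collected after about 48 h. F123 is 1 cell line, and nothing in the sources used here says that the 4 libraries came from separate cultures, so that the spread between them may be technical.

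Collagens are extracellular proteins built from chains that wind around each other in a triple helix, in which glycine recurs at a fixed interval. Fibrillar collagens form the ropes of connective tissue, type IV collagen forms the sheet of basement membranes, and the other classes decorate fibrils, form short networks or beaded filaments, or span the cell membrane. Chains combine only in set partnerships, such as the alpha 1 and alpha 2 chains of type I collagen, and need proline hydroxylation and the chaperone Hsp47 in the endoplasmic reticulum before export. In the early mouse embryo, basement membrane rich in type IV collagen and laminin is laid down by the primitive endoderm and underlies the pluripotent epiblast, while type I collagen is best known from fibroblasts and bone.

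RNA was polyA-selected and sequenced in paired reads of 150 bp. The deposited values are RPKM (reads scaled to gene length and to the total of reads) of each allele in each library, and only reads over a SNP between the strains enter them. A level given here is the mean of both alleles, with the SD over 4 libraries. Totals of reads assigned to an allele were not reported and were inferred from the steps between RPKM values. Both alleles together, they came to 56627972, 50284965, 48178422 and 34120416 in replicates 1 to 4. Each allele was scaled to its own total, which was larger for S129 in every library, so RPKM ratios and read shares differ slightly. On a gene of 1000 bp, 1 read stood for 0.0348 to 0.0598 RPKM. The 8 pluripotency markers examined were all above 1 RPKM, and their highest was Dppa5a at 7111 ± 907 RPKM. Pou5f1, a master regulator of pluripotency, was at 29.5 ± 4.08 RPKM.

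Of the 44 collagen chain genes, 24 (54.5%) had a mean of at least 1 RPKM, against 49.7% of all genes. Another 15 lay between 0.1 and 1 RPKM and 5 below 0.1 RPKM. No member was listed at 0 in all 8 columns, as 15.7% of all genes were. The median member was at 1.22 RPKM and the median gene at 0.975 RPKM. In sum, the 44 genes came to 334, 391, 413 and 352 RPKM in replicates 1 to 4, a mean of 372 ± 36.1 RPKM. Replicate 3 gave the highest sum and replicate 1 the lowest. The coefficient of variation of the 24 genes over the libraries ran from 2.90% to 17.3% with a median of 10.6%, beside 9.26% for the median gene of at least 1 RPKM. The lowest value was in replicate 1 or replicate 4 for 23 of the 24 genes (95.8%), and for 79.3% of all genes of at least 1 RPKM; these are the libraries with the most and the fewest reads.

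**Figure D1:**
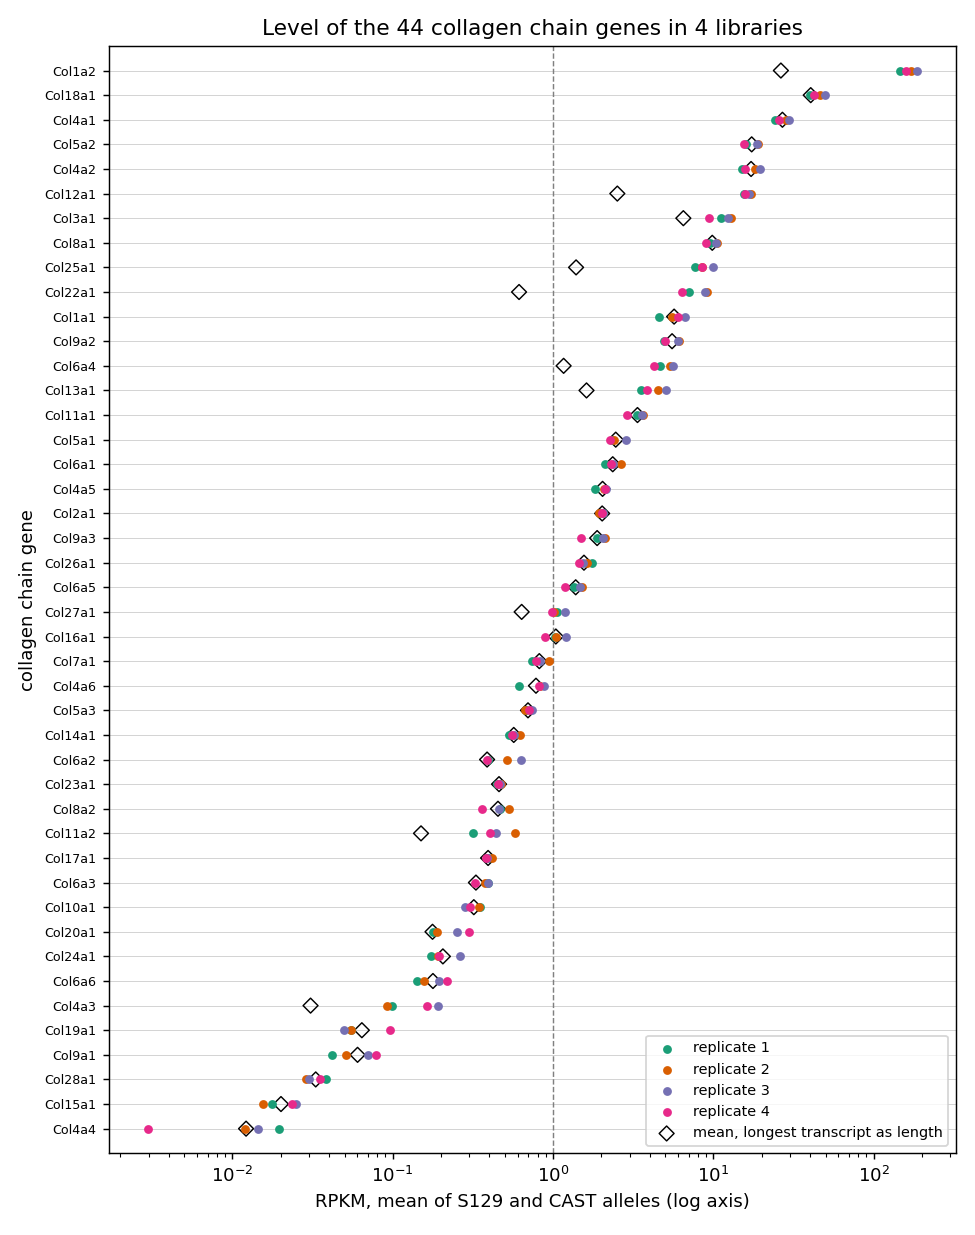
Level of each of the 44 collagen chain genes (mean of both alleles in RPKM, log axis) in the 4 libraries (coloured points), ordered by mean; diamonds give the mean recomputed with the longest annotated transcript as gene length, and the dashed line marks 1 RPKM. Points of a gene lie close together, whereas Col1a2, Col12a1, Col25a1 and Col22a1 drop far to the left with the longer length.

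The length by which the deposited values were divided bears on the order of these genes. For 39 of the 44 it was that of the first transcript listed in GENCODE M21, a gene annotation of the mm10 genome, and for 10 the longest annotated transcript was at least 1.5 times as long. Col1a2 was divided by 850 bp where its longest transcript has 5348 bp, Col12a1 by 1784 bp in place of 11511 bp, and Col25a1 by 1078 bp in place of 6701 bp. Whether reads were counted over all exons of a gene or only over the short transcript is not given in the sources used here, so a mean with the longest transcript is given beside the deposited mean where the lengths differ by more than a few percent. With the longest transcripts, 22 members reached 1 RPKM and the sum was 188 RPKM.

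Fibrillar collagens, 11 genes, had the highest summed level, 210 ± 21.3 RPKM as deposited and 65.4 RPKM with the longest transcripts, and 8 of them had at least 1 RPKM. Most of this was Col1a2, the alpha 2 chain of type I collagen, at 145, 172, 186 and 160 RPKM in replicates 1 to 4 (166 ± 17.5 RPKM). It made up 44.5% of the summed level of all 44 genes and stood above 97.5% of all genes in the table. Divided by its longest transcript it was at 26.3 ± 2.79 RPKM, 14.0% of the sum. It then stood above 88.3% of the genes for which a length could be found, each divided by its longest transcript. Genes listed at 0 are left out of that share, so it is not on the same set of genes as the 97.5%. With the length of all exons joined, Col1a2 was at 11.3 RPKM, below Col4a1 at 23.9 RPKM and Col4a2 at 16.7 RPKM. Class sums were not made on that length, so the first place of the fibrillar class holds only for the lengths summed here. Col1a1 encodes the alpha 1 chain, of which a type I molecule holds more copies than of alpha 2, and it was at 4.58, 5.54, 6.63 and 5.98 RPKM (5.68 ± 0.861 RPKM). Col1a2 exceeded Col1a1 in all 4 libraries, by 4.85 ± 0.11 on the scale of log2(RPKM+0.1) as deposited and by 2.20 ± 0.11 (4.59-fold) with the longest transcripts, or by 1.13 with the length of all exons joined. This pair was chosen after its values were seen. Among 4 libraries the two-sided exact sign-flip test can give no p below 0.125, which it gave here.

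Col5a2 and Col5a1 encode chains of type V collagen, which starts and limits the width of type I fibrils. Col5a2 was at 16.01, 19.03, 18.76 and 15.47 RPKM (17.3 ± 1.84 RPKM). Col5a1 was at 2.33, 2.39, 2.85 and 2.27 RPKM (2.46 ± 0.264 RPKM). Libraries of the 2 genes did not overlap, and both had been divided by the longest transcript. Col5a3, a further type V chain, was at 0.697 ± 0.0324 RPKM (0.666 to 0.740). Col3a1, the chain of type III collagen of elastic tissues, was at 11.1, 12.8, 12.4 and 9.44 RPKM (11.4 ± 1.51 RPKM, or 6.49 ± 0.857 RPKM with the longest transcript), lowest in replicate 4.

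Col11a1, a minor chain of cartilage fibrils, was at 3.32, 3.62, 3.60 and 2.89 RPKM (3.36 ± 0.338 RPKM). Col2a1, the main cartilage chain, was at 2.06, 1.94, 2.06 and 2.03 RPKM (2.02 ± 0.0587 RPKM), the smallest relative spread among the 24 genes. Col27a1, a fibrillar chain with a shortened helix, was at 1.06, 1.01, 1.18 and 0.980 RPKM (1.06 ± 0.0898 RPKM, or 0.636 ± 0.0541 RPKM with the longest transcript). The cartilage chain genes were thus at levels far under those of Col1a2 and Col5a2. Col11a2 was at 0.434 ± 0.111 RPKM (0.314 to 0.581), or 0.14996 ± 0.0383 RPKM with the longest transcript, and Col24a1, a chain linked to bone, at 0.205 ± 0.0395 RPKM (0.174 to 0.263). The length of Col11a2 was searched for, not annotated, and a multiple of it would give the same values.

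**Figure D2:**
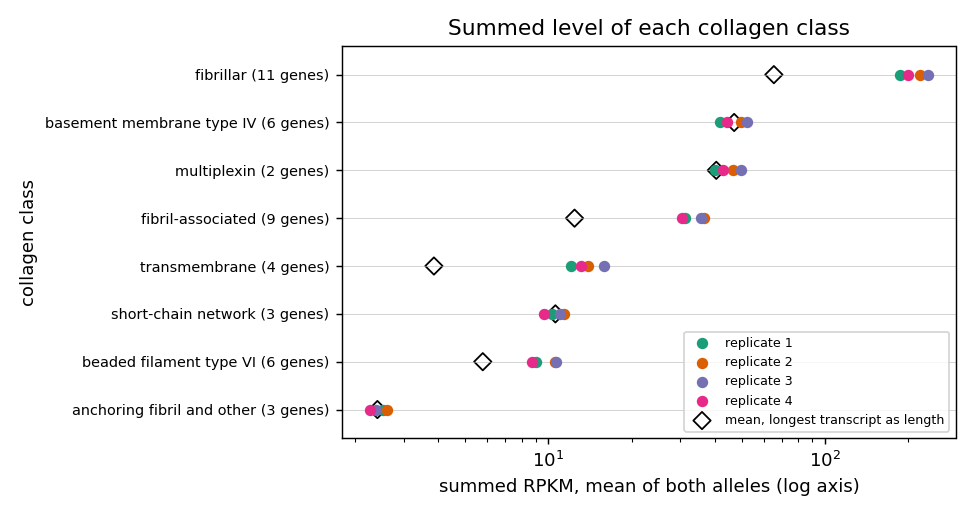
Summed level of the genes of each collagen class (RPKM, log axis) in the 4 libraries (coloured points), with diamonds for the mean sum recomputed with the longest annotated transcript of each gene. The fibrillar class is highest on both scales shown, at 210 and 65.4 RPKM. The fibril-associated, type VI and transmembrane classes move left and the type IV class hardly moves. Sums with the length of all exons joined were not made.

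Type IV collagen, the network of basement membranes, is encoded by 6 genes that lie as 3 pairs, head to head, on chromosomes 8, 1 and X. Their summed level was 47.1 ± 4.82 RPKM as deposited and 47.0 RPKM with the longest transcripts. The genes of the first pair, Col4a1 (chromosome 8, 11198423 to 11312826, minus strand, mm10) and Col4a2 (11312805 to 11449287, plus strand), overlap by 22 bases at their starts. The second pair, Col4a4 (chromosome 1, 82448423 to 82586849, minus strand) and Col4a3 (82586921 to 82722059, plus strand), is separated by 71 bases, and the last, Col4a6 (chromosome X, 141165403 to 141474076, minus strand) and Col4a5 (141475385 to 141689234, plus strand), by 1308 bases. These stretches between the starts are printed because the genes of a pair diverge from them. They are RefSeq sequences of the build GRCm38.p6 (mm10), 5′ to 3′, and capitals mark 3 kinds of short motif on either strand. The letters CCAAT are those of the CCAAT box. A GC box was searched as GGGCGG. For the TATA box the letters were TATAAA, and no match overlapped another in these stretches.

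Col4a1 and Col4a2, shared start, chr8:11312805-11312826, plus strand, transcribed in both genes: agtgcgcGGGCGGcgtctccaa
Col4a4 to Col4a3, whole gap, chr1:82586850-82586920, minus strand: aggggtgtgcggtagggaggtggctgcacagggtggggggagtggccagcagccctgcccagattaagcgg
Col4a6, 250 bases before its start, chrX:141474077-141474326, minus strand: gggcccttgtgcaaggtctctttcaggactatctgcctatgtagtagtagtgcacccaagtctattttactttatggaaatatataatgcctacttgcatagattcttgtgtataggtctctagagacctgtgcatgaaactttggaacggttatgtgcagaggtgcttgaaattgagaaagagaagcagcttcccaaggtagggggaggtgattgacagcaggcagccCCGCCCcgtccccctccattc
Col4a5, 216 bases before its annotated first exon, chrX:141475169-141475384, plus strand: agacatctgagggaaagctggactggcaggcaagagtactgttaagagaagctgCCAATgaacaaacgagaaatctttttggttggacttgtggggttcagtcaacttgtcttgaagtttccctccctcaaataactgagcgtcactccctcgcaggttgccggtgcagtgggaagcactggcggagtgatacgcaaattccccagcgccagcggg

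The gap between Col4a4 and Col4a3 held none of these letters, and its G and C content was 69.0%. The 22 shared bases of the first pair held 1 GGGCGG. The stretches before Col4a6 and Col4a5 had G and C contents of 47.6% and 52.3%. No TATAAA occurred in any of the 4 stretches. RefSeq start windows of 300 bases (250 before and 50 from the start) were at hand for 35 of the 44 collagen chain genes; those of Col1a1, Col2a1, Col4a3, Col5a2, Col9a3, Col12a1, Col14a1, Col22a1 and Col26a1 were not used here. A member is counted if any of its windows held the letters, and the 35 members had 38 windows. The shares of all are by single window, so the units differ. On either strand, GGGCGG was in a window of 22 of the 35 members and in 35.7% of all 32851 windows. CCAAT was found for 13 members and in 37.4% of all windows, and TATAAA for 5 members (Col3a1, Col10a1, Col11a2, Col13a1 and Col17a1) and in 13.6% of all windows. These matches are letters in a window and say nothing about binding.

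Col4a1 and Col4a2, which pair in the most widespread form of type IV collagen, stood at places 3 and 5 in the order of levels. Col4a1 was at 24.1, 28.5, 29.6 and 25.5 RPKM (26.9 ± 2.53 RPKM). Col4a2 was at 15.1, 18.2, 19.5 and 15.8 RPKM (17.2 ± 2.07 RPKM). Both were lowest in replicate 1 and highest in replicate 3, and Col4a1 was above Col4a2 in all 4 libraries by 0.65 ± 0.04 on the log2 scale (1.57-fold). The difference was 0.63 on the S129 allele and 0.66 on the CAST allele.

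The X-linked pair was lower. Col4a5 was at 1.82, 2.09, 2.13 and 2.10 RPKM (2.03 ± 0.143 RPKM), with replicate 1 apart from the other libraries. Col4a6 was at 0.782 ± 0.117 RPKM (0.612 to 0.879). In a male line the single X is maternal, so a mean over alleles counts an absent copy for these genes, and their S129 values alone averaged 4.07 and 1.56 RPKM. Col4a5 exceeded Col4a6 in all 4 libraries by 1.28 ± 0.11 on the log2 scale (2.43-fold).

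Col4a3 and Col4a4, which with Col4a5 form the network of the kidney filter, were near the floor. Col4a3 was at 0.136 ± 0.0486 RPKM (0.0915 to 0.190), or 0.0307 ± 0.0109 RPKM with the longest transcript, from 49 reads in all 4 libraries. Col4a4 was at 0.0122 RPKM from 25 reads, with a highest value of 0.0320 RPKM on any allele. Col4a3 exceeded Col4a4 by 1.05 ± 0.34 on the log2 scale as deposited, but by 0.22 ± 0.18 with the longest transcripts, since Col4a3 had been divided by 1926 bp in place of 8554 bp. The first gene of each of the 3 pairs was thus higher in 4 of 4 libraries (Col4a1, Col4a3 and Col4a5). The two-sided exact sign-flip test gave p = 0.125 for each pair, the smallest it can give with 4 libraries, and the same value after Benjamini-Hochberg adjustment over the 3 pairs.

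**Figure D3:**
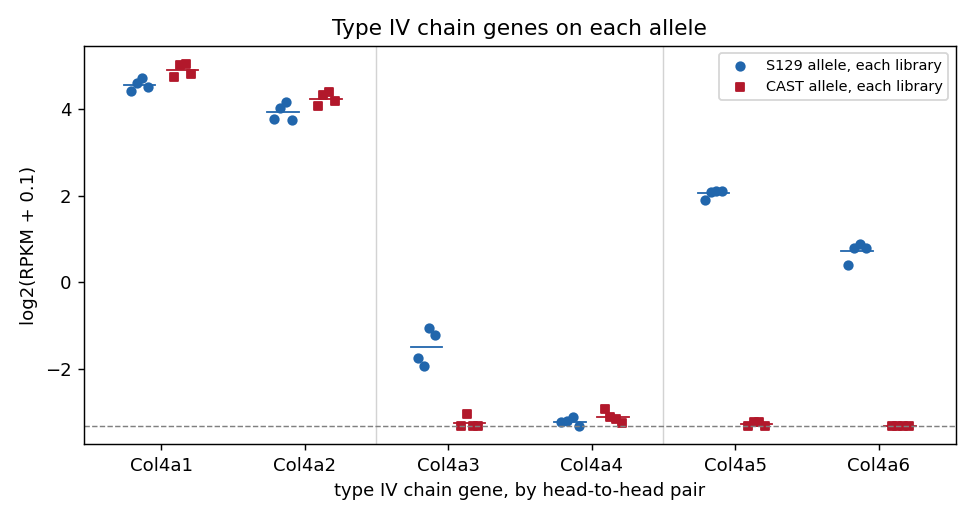
Level of the 6 type IV chain genes on the S129 allele (blue circles) and the CAST allele (red squares) in each of the 4 libraries, as log2(RPKM + 0.1), with a bar at the mean and a dashed line at the value of 0 RPKM; grey lines separate the head-to-head pairs. Col4a1 and Col4a2 have values on both alleles, with CAST somewhat higher in each library. Col4a5 and Col4a6 have S129 values only or nearly so, and Col4a3 has S129 values of 0.162 to 0.381 RPKM with CAST at or near 0.

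Partners of these basement membrane chains were also read. Of 16 basement membrane genes, which take in laminin chains, nidogens and perlecan, 14 had at least 1 RPKM. Lama5, a laminin alpha chain, was at 182 ± 17.5 RPKM as deposited and at 11.7 RPKM with its longest transcript. Hspg2, the core protein of perlecan, was at 152 ± 23.5 RPKM as deposited and at 8.78 RPKM with its longest transcript. Both had been divided by short transcripts, of 734 and 820 bp. Sparc, a secreted glycoprotein that binds collagen, was at 120 ± 9.56 RPKM, or 111 RPKM with the longest transcript. Lamc3, a laminin gamma chain, was listed at 0.

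Of the multiplexins, collagens with an interrupted helix that carry heparan or chondroitin sulphate chains at basement membranes, 1 of 2 genes was expressed at 1 RPKM or more. Col18a1, from whose end endostatin is cut, was at 40.1, 46.4, 49.6 and 42.7 RPKM (44.7 ± 4.20 RPKM). It was second in the deposited order and first with the longest transcripts (40.4 ± 3.80 RPKM). Col15a1, the other multiplexin, had a highest value of 0.0498 RPKM and 19 reads in all, 16 of them on CAST.

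Fibril-associated collagens, which coat fibrils and link them to other matrix, summed to 33.4 ± 3.13 RPKM as deposited and 12.4 RPKM with the longest transcripts, and 5 of 9 genes had at least 1 RPKM. Col12a1, found on type I fibrils, was at 15.4, 17.2, 16.7 and 15.6 RPKM (16.2 ± 0.834 RPKM, or 2.51 ± 0.129 RPKM with the longest transcript). Col22a1, known from tissue junctions such as that of muscle and tendon, was at 7.02, 9.14, 8.86 and 6.39 RPKM (7.85 ± 1.36 RPKM, or 0.613 ± 0.106 RPKM). The length behind Col22a1, 688 bp, was the smallest that made its reads whole and matches no annotated transcript. With the longer length both genes fell to levels under those of Col9a2.

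Col9a2 and Col9a3, chains of the type IX collagen of cartilage, were above 1 RPKM, whereas their partner Col9a1 was near the floor. Col9a2 was at 4.95, 6.14, 6.02 and 4.98 RPKM (5.52 ± 0.648 RPKM). Col9a3 was at 1.87, 2.11, 2.05 and 1.50 RPKM (1.88 ± 0.275 RPKM). Col9a1 had a highest value of 0.156 RPKM and 42 reads in all. Col16a1 was at 1.03, 1.04, 1.20 and 0.889 RPKM (1.04 ± 0.128 RPKM). Col14a1 was at 0.568 ± 0.0370 RPKM (0.529 to 0.618) and Col20a1 at 0.229 ± 0.0576 RPKM (0.177 to 0.301), or 0.177 ± 0.0444 RPKM with the longest transcript. Col19a1 reached at most 0.116 RPKM.

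Type VI collagen forms beaded filaments from an alpha 1 and an alpha 2 chain together with 1 of several longer chains. Of its 6 genes 3 had at least 1 RPKM, and the sum was 9.75 ± 1.03 RPKM, or 5.79 RPKM with the longest transcripts. Col6a4 was at 4.65, 5.36, 5.63 and 4.28 RPKM (4.98 ± 0.621 RPKM, or 1.16 ± 0.145 RPKM with the longest transcript). Col6a1 was at 2.10, 2.63, 2.38 and 2.30 RPKM (2.35 ± 0.220 RPKM). Col6a5 was at 1.35, 1.52, 1.47 and 1.19 RPKM (1.38 ± 0.144 RPKM). The alpha 2 chain was lower than the alpha 1 chain in every library, Col6a2 being at 0.482 ± 0.119 RPKM (0.386 to 0.635), or 0.387 ± 0.0953 RPKM with the longest transcript. Col6a3 was at 0.370 ± 0.0323 RPKM (0.323 to 0.393), or 0.330 ± 0.0287 RPKM with the longest transcript, and Col6a6 at 0.178 ± 0.0350 RPKM (0.142 to 0.218).

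Transmembrane collagens, which sit in the cell membrane with the helix outside, summed to 13.7 ± 1.60 RPKM as deposited and 3.86 RPKM with the longest transcripts. Col25a1, first known from amyloid plaques of the brain, was at 7.66, 8.50, 9.97 and 8.44 RPKM (8.64 ± 0.965 RPKM, or 1.39 ± 0.155 RPKM with the longest transcript). Col13a1, found at cell adhesions and at the neuromuscular junction, was at 3.55, 4.51, 5.03 and 3.87 RPKM (4.24 ± 0.658 RPKM, or 1.62 ± 0.251 RPKM). Both were lowest in replicate 1 and highest in replicate 3. Col23a1 was at 0.460 ± 0.0124 RPKM (0.445 to 0.474), and Col17a1, of the hemidesmosomes of skin, at 0.393 ± 0.0148 RPKM (0.380 to 0.414).

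Of the short-chain network collagens, Col8a1, known from the cornea and vessel wall, was at 9.49, 10.5, 10.3 and 8.98 RPKM (9.83 ± 0.724 RPKM). Its partner chain Col8a2 was at 0.453 ± 0.0704 RPKM (0.358 to 0.528). Col10a1, of hypertrophic cartilage, was at 0.320 ± 0.0345 RPKM (0.280 to 0.352). Thus 1 gene carried nearly the whole sum of the class, 10.6 ± 0.789 RPKM. Of the remaining members, Col26a1 was at 1.75, 1.63, 1.52 and 1.45 RPKM (1.59 ± 0.130 RPKM) and was the only member of at least 1 RPKM whose highest value was in replicate 1. Col7a1, the anchoring fibril of skin, was at 0.820 ± 0.0876 RPKM (0.734 to 0.939), and Col28a1 reached at most 0.0764 RPKM on either allele.

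In the order of deposited levels, 9 of the 23 steps between neighbours among the 24 genes were smaller than the larger of the 2 SDs. Genes so placed include Col5a2, Col4a2 and Col12a1, then Col1a1, Col9a2 and Col6a4, and then Col4a5, Col2a1 and Col9a3. The first steps, from Col1a2 to Col18a1 and from Col18a1 to Col4a1, held in all 4 libraries and exceeded the spread. However, Col1a2 moved from place 1 to place 3 with the longest transcripts. With the length of all exons joined, Col1a2 (11.3 RPKM) fell below Col18a1 (32.2 RPKM), Col4a1 (23.9 RPKM), Col4a2 (16.7 RPKM) and Col5a2 (12.0 RPKM).

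Markers of feeder fibroblasts, cells that make type I collagen, were present too. All 14 of the markers examined were measured and none was listed at 0. Their sums were 534, 583, 582 and 613 RPKM in replicates 1 to 4, and 10 of the 14 had at least 1 RPKM. Acta2, smooth muscle actin, was the highest at 340 ± 23.0 RPKM, but the length behind its values could not be recovered. Mfap5, a microfibril protein, was at 98.7, 97.6, 95.8 and 147 RPKM in replicates 1 to 4 (109.9 ± 25.1 RPKM, or 14.5 RPKM with the longest transcript), highest in replicate 4. Tagln, an actin-binding protein of contractile cells, was at 101 ± 7.25 RPKM, and Postn, a matrix protein that binds collagen, at 15.4 ± 2.24 RPKM, or 9.20 RPKM with the longest transcript. The other markers were lower, with Fbln1 at 2.62, Fbn1 at 2.24 (1.85 with the longest transcript), Pdgfrb at 2.18 and Thy1 at 1.57 RPKM. Prrx1 was at 1.35 RPKM (1.03 with the longest transcript) and Twist2 at 1.17 RPKM (0.614 with the longest transcript). Under 1 RPKM were Dcn at 0.659 (0.247 with the longest transcript), Lum at 0.0462, Fap at 0.0352 and Dpt at 0.0298 RPKM. As deposited, the 14 genes thus ran from near the floor to a level above that of Col1a2. All 10 markers of primitive and parietal endoderm, which lay down type IV collagen in the embryo, were measured as well, with sums of 50.6, 55.4, 57.8 and 54.1 RPKM, none at 0, and 6 of at least 1 RPKM. Dab2 was the highest at 44.2 RPKM as deposited and 6.09 RPKM with its longest transcript. Gata6 was at 1.40 RPKM, with a length that could not be recovered either. Pdgfra was at 3.31 (1.39 with the longest transcript), Thbd at 1.81, Amn at 1.18 and Gata4 at 1.03 RPKM. Below 1 RPKM lay Cubn at 0.776, Sox17 at 0.326, Sox7 at 0.273 and Foxa2 at 0.189 RPKM. Fewer cells of a type and less RNA per cell cannot be told apart in such bulk samples, and the part of either cell type in the collagen levels was not tested.

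The machinery that makes and handles collagen was read from lists of 73 genes, of which 72 were in the table and 54 had at least 1 RPKM. Of 18 modification and folding enzymes, 16 had at least 1 RPKM. Serpinh1, which encodes Hsp47, was at 234 ± 28.8 RPKM, P4hb, a subunit of prolyl 4-hydroxylase, at 122.6 ± 12.9 RPKM, and Crtap, of the prolyl 3-hydroxylation complex, at 29.1 ± 1.07 RPKM. For each of these the length was that of the longest transcript. All 8 export genes found in the table had at least 1 RPKM, led by Sar1a at 293 ± 16.5 RPKM (73.1 RPKM with its longest transcript), Sar1b at 90.8 ± 6.45 RPKM and Sec31a at 60.4 ± 4.10 RPKM (24.1 RPKM with its longest transcript), parts of the COPII coat that carries procollagen out of the endoplasmic reticulum.

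Genes of procollagen cleavage and crosslinking were lower. Of 14, 9 had at least 1 RPKM, and the highest were Pcolce, an enhancer of C-propeptide cleavage, at 21.4 ± 0.847 RPKM, Pxdn, which makes the sulfilimine bonds of type IV collagen, at 14.0 ± 1.35 RPKM, and Loxl3, a lysyl oxidase, at 11.1 ± 1.40 RPKM (1.25 RPKM with its longest transcript). Of 10 collagen receptors 4 had at least 1 RPKM, with Itgb1, the beta 1 integrin subunit, at 69.8 ± 11.1 RPKM, Mrc2 at 19.2 ± 2.07 RPKM (1.80 RPKM with its longest transcript) and Ddr1, a receptor tyrosine kinase, at 3.61 ± 0.335 RPKM. Gp6, the platelet receptor, and Itga10 were listed at 0. Of 6 collagenases and gelatinases 3 had at least 1 RPKM, namely Mmp9 at 28.5 ± 4.41 RPKM (3.73 RPKM with its longest transcript), Mmp2 at 25.9 ± 3.28 RPKM and Mmp14 at 18.5 ± 2.595 RPKM (14.9 RPKM with its longest transcript).

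The second comparison that the data allow is between the 2 alleles within each library. Differences are S129 minus CAST on the scale of log2(RPKM+0.1), averaged over 4 libraries, and folds are taken on the same scale. The SE is the moderated one of limma, in which a gene's variance is drawn towards that of all genes tested. Adjusted p-values are from limma with Benjamini-Hochberg adjustment over the 13341 genes whose alleles summed to at least 1 RPKM. Of the 44 collagen chain genes 28 passed this filter, 26 on autosomes and 2 on X. Among the 26, S129 was higher for 10 (38.5%; 28.9% of the 12869 autosomal genes tested) and CAST was higher for 12 (46.2%; 32.5% of all). The allele values of 14 members (53.8%) did not overlap between the alleles over the 4 libraries, against 43.6% of autosomal genes. The median absolute difference was 0.39 for the members and 0.29 for all autosomal genes, and the medians with their sign were -0.01 and -0.02, both close to 0.

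Parts of the genome differed in their S129 share of reads as a whole in these cells. The median gene had a share of 37.1% on chromosome 3 after position 41626720, 54.2% on chromosome 6, 46.6% on chromosome 8 and 99.9% on X, against 49.6% to 51.1% on 15 autosomes. On chromosome 16 it was 64.2% before position 56007245, where no member lies, and 50.6% after it. The members' own shares are therefore set beside the median of their chromosome or its part. With these medians taken out, S129 was higher for 9 of the 26 (34.6%; 28.6% of all autosomal genes) and CAST for 11 (42.3%; 28.4% of all).

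**Figure D4:**
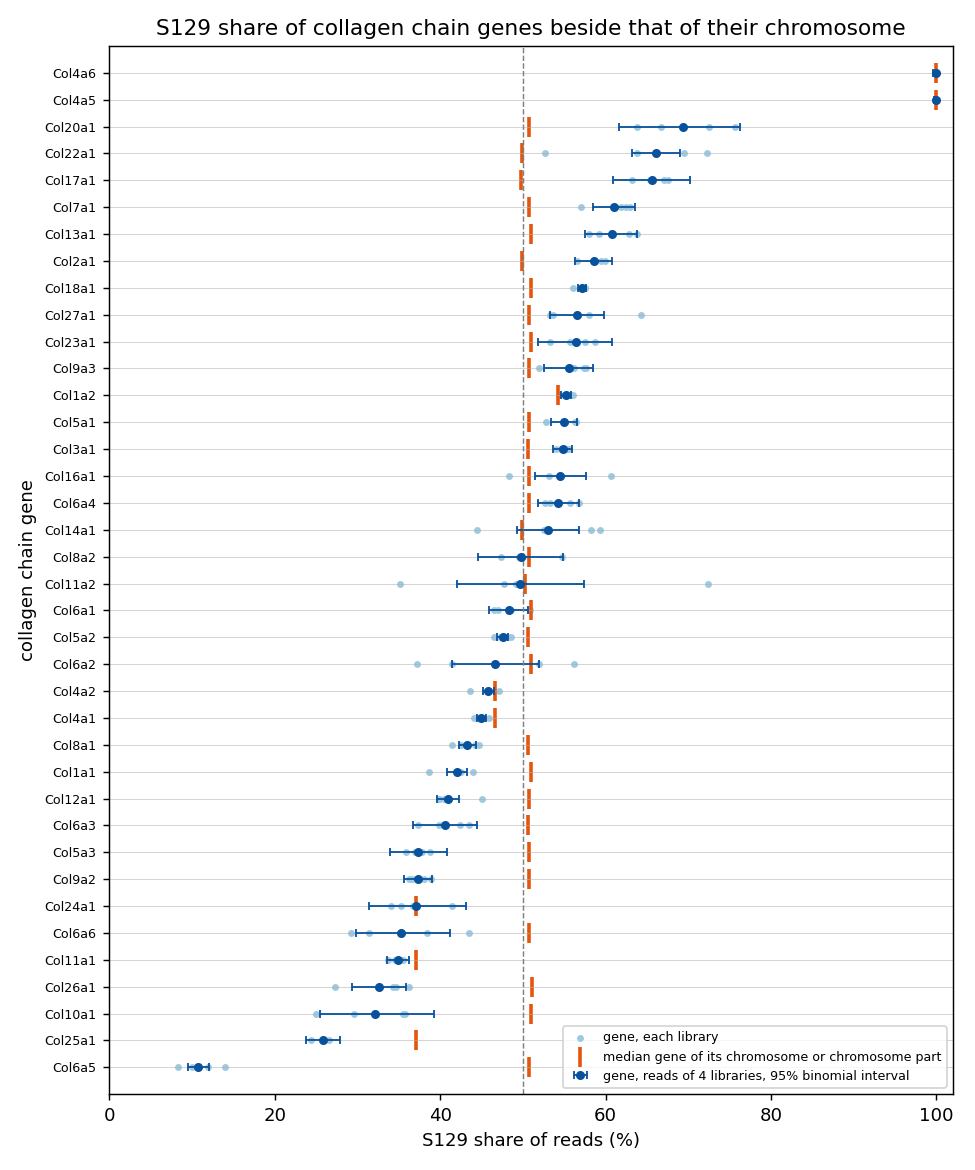
S129 share of reads (percent) of the collagen chain genes with at least 100 reads over the 4 libraries (dark points with exact 95% binomial intervals, which cover counting error only), with each library's share (light points) and the median gene of the same chromosome or chromosome part (orange bars). Col6a5 lies lowest at 10.7%, Col4a5 and Col4a6 lie at 100% with the median gene of X, and Col11a1, Col24a1, Col1a2, Col4a1 and Col4a2 lie near the bars of their chromosomes.

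A difference of at least 2-fold was seen on autosomes for 3 members, all with CAST higher (11.5%; 5.63% of all autosomal genes), and for none with S129 higher (6.29% of all). The largest was that of Col6a5 (chromosome 9, 105856078 to 105960643, minus strand). Its S129 allele was at 0.314, 0.243, 0.285 and 0.322 RPKM and its CAST allele at 2.38, 2.79, 2.65 and 2.07 RPKM. The alleles lay far apart in every library, a difference of -2.71 ± 0.13 (6.57-fold, adjusted p = 0.00015, CAST higher in 4 of 4). Its size depended on the pseudocount, the constant added to RPKM before the log. With 1 in place of 0.1 the difference was -1.42, and with 0.01 it was -3.04. Of its 2418 reads, 10.7% (95% interval 9.51% to 12.0%) came from S129. Its neighbours on either side, Col6a6 and Col6a4, had S129 shares of 35.3% (286 reads) and 54.3% (1637 reads), so that 3 adjacent genes of the same family had intervals of their shares that did not overlap.

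Col25a1, on the part of chromosome 3 with few S129 reads, was at 3.97, 4.26, 5.02 and 4.00 RPKM on S129 and at 11.4, 12.7, 14.9 and 12.9 RPKM on CAST. The difference was -1.57 ± 0.04 (2.96-fold, adjusted p = 2.42e-05, CAST higher in 4 of 4), and -0.77 once the median of its chromosome part was taken out (adjusted p = 0.000196). Col26a1 (chromosome 5) was at 0.931 to 1.10 RPKM on S129 and 1.93 to 2.57 RPKM on CAST, a difference of -1.01 ± 0.11 (2.01-fold, adjusted p = 0.0016, CAST higher in 4 of 4). Taking out the chromosome median left it at -1.02. The difference of Col25a1 was thus much smaller relative to its region, and that of Col26a1 was nearly the same. Col26a1 lay at the limit of 2-fold. It was under that limit without replicate 1 (-0.89) and with a pseudocount of 1 (-0.64). Without replicate 2, 3 or 4 its difference was -1.04, -1.07 and -1.03.

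Col11a1 lies in the same part of chromosome 3. It was 1.91-fold higher on CAST (-0.94 ± 0.03, adjusted p = 6.64e-05, 4 of 4 libraries), and its S129 share of 34.9% was close to the regional median of 37.1%. With that median taken out the difference was -0.14 (adjusted p = 0.024). Col24a1, a further member of this region, had a share of 37.1% on 275 reads and was too low for the test.

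Further members higher on CAST were Col9a2 (-0.78 ± 0.04, 1.72-fold), Col5a3 (-0.70 ± 0.04, 1.62-fold), Col12a1 (-0.56 ± 0.07, 1.47-fold), Col1a1 (-0.52 ± 0.06, 1.44-fold), Col8a1 (-0.44 ± 0.05, 1.36-fold) and Col5a2 (-0.19 ± 0.03, 1.14-fold), each in 4 of 4 libraries and each with an adjusted p of at most 0.00903. These lie on chromosomes whose median share was near 50%, and their differences moved by at most 0.02 with that median taken out. Col9a2, for instance, was at 3.51, 4.56, 4.30 and 3.77 RPKM on S129 and at 6.38, 7.72, 7.73 and 6.18 RPKM on CAST, with no overlap.

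Members higher on S129 were Col22a1 (0.82 ± 0.22, 1.76-fold), Col13a1 (0.58 ± 0.07, 1.49-fold), Col7a1 (0.53 ± 0.07, 1.44-fold), Col2a1 (0.43 ± 0.04, 1.34-fold), Col18a1 (0.36 ± 0.03, 1.28-fold), Col9a3 (0.27 ± 0.07, 1.20-fold), Col5a1 (0.23 ± 0.05, 1.17-fold), Col3a1 (0.22 ± 0.03, 1.17-fold) and Col6a4 (0.21 ± 0.05, 1.15-fold). Each was higher on S129 in 4 of 4 libraries, with an adjusted p of at most 0.0314. The call of Col22a1 rested on some libraries: its S129 shares were 69.5%, 63.8%, 72.3% and 52.7% in replicates 1 to 4, and the adjusted p was 0.107, 0.0897 and 0.0943 without replicate 1, 2 and 3. The call of Col9a3 was lost without replicate 1, 3 or 4 (adjusted p = 0.0881, 0.086 and 0.0763). That of Col5a1 was lost without replicate 1 or 2 (adjusted p = 0.0573 and 0.0551), and that of Col6a4 without replicate 1, 2 or 4 (adjusted p = 0.0998, 0.0586 and 0.0712). The other S129-higher calls on autosomes held with any library left out.

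The chains that assemble together did not always lean to the same allele. Type I chains went opposite ways, Col1a2 being higher on S129 (0.25 ± 0.03, 1.19-fold, adjusted p = 0.00301, 4 of 4 libraries) and Col1a1 on CAST. The share of Col1a2, 55.3%, was near the 54.2% of chromosome 6, and with that median taken out its difference was 0.05 (adjusted p = 0.239). Of the type V chains Col5a1 was higher on S129 and Col5a2 and Col5a3 on CAST, and of the type IX chains Col9a3 was higher on S129 and Col9a2 on CAST. Differences between the differences of 2 genes were not tested.

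Both genes of the chromosome 8 pair were higher on CAST, Col4a1 by -0.34 ± 0.03 (1.26-fold, adjusted p = 0.00142) and Col4a2 by -0.31 ± 0.05 (1.24-fold, adjusted p = 0.00467), in 4 of 4 libraries each. Their S129 shares, 45.0% and 45.8%, lay beside the 46.6% of chromosome 8. Neither difference passed the threshold with the chromosome median taken out (-0.11, adjusted p = 0.0562, and -0.08, adjusted p = 0.216).

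The X-linked pair was read almost solely from S129, and S129 was higher for 99.4% of the 467 X-linked genes tested. Col4a5 was at 3.64, 4.17, 4.25 and 4.20 RPKM on S129, with 2544 reads against 2 on CAST, a ratio per assigned read of 1225 with an interval of 339 to 10118 for counting error only. Col4a6 was at 1.22, 1.65, 1.76 and 1.62 RPKM on S129, with 990 reads against 0. With 3 reads over the 4 libraries as the limit that a count of 0 allows, S129 was at least 318-fold higher.

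On chromosome 1 the low pair showed a different picture. Col4a3 had 48 S129 reads and 1 CAST read, a share of 98.0% (89.1% to 99.9%), where the median gene of the chromosome had 50.6%. Its S129 values were 0.199, 0.162, 0.381 and 0.328 RPKM, and its CAST value was 0 in replicates 1, 3 and 4. Col4a4, 71 bases away, had a share of 32.0% (14.9% to 53.5%) on 25 reads. In the fit without a filter on low values, Col4a3 differed by 1.76 ± 0.22 (adjusted p = 0.00518, S129 higher in 4 of 4) and Col4a4 by -0.11 ± 0.07 (adjusted p = 0.277). Col28a1 had 25 CAST reads and 1 S129 read, a difference of -0.67 ± 0.08 in that fit (adjusted p = 0.00395, CAST higher in 4 of 4).

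Of the other members under the filter, Col10a1 (-0.88 ± 0.11), Col6a6 (-0.57 ± 0.11), Col24a1 (-0.55 ± 0.07) and Col6a3 (-0.47 ± 0.07) were higher on CAST and Col20a1 (0.77 ± 0.11), Col17a1 (0.70 ± 0.05) and Col23a1 (0.25 ± 0.06) on S129 in the fit without a filter. Col15a1, Col6a2, Col9a1, Col8a2, Col19a1 and Col11a2 did not pass it, on 19 to 378 reads each. Among the members that the main test covered, Col6a1 (-0.15 ± 0.05, adjusted p = 0.0668), Col14a1 (0.13 ± 0.14, adjusted p = 0.462), Col16a1 (0.17 ± 0.12, adjusted p = 0.26) and Col27a1 (0.34 ± 0.12, adjusted p = 0.0602) did not pass the threshold. Col6a1 passed it without replicate 3 (adjusted p = 0.0433) and with the chromosome median taken out (adjusted p = 0.0421). Col27a1 passed it with a pseudocount of 1 (adjusted p = 0.0493) and without the replicate block, that is, with the alleles of a library not paired (adjusted p = 0.0457).

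Of the pathway genes tested, 58 in all and none X-linked, S129 was higher for 15 (25.9%) and CAST for 21 (36.2%), shares near those of all autosomal genes. Modification and folding enzymes had 5 of 17 higher on S129 and 5 on CAST, export genes 2 and 3 of 8, cleavage and crosslinking genes 4 and 4 of 10, receptors 0 and 2 of 5, degradation genes 0 and 1 of 4, and basement membrane partners 4 and 6 of 14. The largest difference was that of P4ha3, a catalytic subunit of prolyl 4-hydroxylase, at 0.385 RPKM on S129 and 3.60 RPKM on CAST (-2.93 ± 0.08, adjusted p = 3.38e-05, CAST higher in 4 of 4). Lama3, a laminin alpha chain, was at 2.40 and 9.03 RPKM (-1.87 ± 0.04). On the other side, Adamts14, a procollagen N-proteinase, was at 2.72 RPKM on S129 and 0.864 RPKM on CAST (1.55 ± 0.04). P3h2, a prolyl 3-hydroxylase gene on the S129-rich part of chromosome 16, differed by 1.03 ± 0.08, and by 0.24 (adjusted p = 0.0615) with the regional median taken out.

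The strain of the feeder fibroblasts is not given in the sources used here. Of the 11 fibroblast markers tested, 6 (54.5%) were higher on S129 and 2 (18.2%) on CAST, where the shares of all autosomal genes were 28.9% and 32.5%. With the chromosome medians taken out the counts were 7 and 1. Thy1 was at 2.49 RPKM on S129 and 0.652 RPKM on CAST, while Mfap5 was at 27.3 and 193 RPKM. Of 7 endoderm markers tested, 3 (42.9%) were higher on CAST and 0 on S129, beside the same shares of all autosomal genes, and these counts were the same with the chromosome medians taken out. Both lists are small, and no test was made of their counts. What part such cells had in the allele differences of collagen chain genes was not tested.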

How the data were processed

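Reads were made into values by the authors, who deposited RPKM per gene and allele. Per the labels and the study's methods, reads were checked with FastQC, and ribosomal RNA was filtered out with SortMeRNA. The reads were then trimmed with Trimmomatic 0.40, aligned with STAR to mm10 masked at strain SNPs, and assigned to S129 or CAST with SNPsplit. The counting program is not given in the sources used here. Deposited averages and their log10 values were not used, and no column belonged to other samples.

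The Ensembl identifiers of 24003 of the 24026 genes were found in GENCODE M21. Whole reads were recovered from the RPKM steps, within 0.02 reads, for 94.5% of the 20243 genes above 0. Alleles were compared with limma 3.58.1 on differences of log2(RPKM+0.1) within libraries, with a threshold of 0.05. Both columns of a number are reads of one library, which pairs them; over 11543 autosomal genes of at least 1 RPKM, deviations from the allele means correlated at 0.146 to 0.242 within a library and -0.196 to 0.156 between libraries. Pairs of genes were compared by exact sign-flip tests. Scripts were tested on simulated data. Collagen chain genes of at least 1 RPKM were named with every value, those from 0.1 to 1 RPKM with mean, SD and range, and the rest with their highest value; pathway genes were the 3 highest of each list and those called at 2-fold or more. The collagen chain genes and all lists were chosen with earlier results of these data known. RefSeq start windows came from GRCm38.p6. No molecular identifiers were used, so reads are not counts of molecules and the intervals take in counting error alone.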

Additional observations from a re-analysis of the deposited data

Results flagged for a closer look

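Among 32 quantities (the levels of the 24 collagen chain genes of at least 1 RPKM and the sums of the 8 classes), 1 had a library apart from the others by Dixon's criterion at 95%. Chance alone flags about 1 in 20. Col4a5 was at 1.82 RPKM in replicate 1, whereas the other libraries lay between 2.09 and 2.13 RPKM. The neighbouring Col4a6, too low to be among these quantities, was also lowest in replicate 1, at 0.612 RPKM.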

How the results depend on the processing

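The number of collagen chain genes of at least 1 RPKM, 24, was 19 with exon-union lengths, 22 with the longest transcript (chosen after seeing the data), 24 on S129 alone, 21 on CAST alone, 28 for the sum of both alleles and 23 or 24 with each library left out. Of the 24 levels, 17 moved by more than their SD with exon-union lengths and 9 with the longest transcript, all downwards; none did with the median or with a library left out. Calls between alleles, X-linked members included, stayed at 8 to 15 with S129 higher and 10 to 17 with CAST higher, against 12 and 12. The highest counts, 15 and 17, are from the fit without a filter, which also took in the 16 members too low for the main test. With a filter of 2 RPKM, 24 members were tested. Shares of all genes called were worked out only for the main fit and with chromosome medians taken out. The 12 with S129 higher take in Col4a5 and Col4a6 on X, and on autosomes S129 was higher for 10. Without the replicate block the counts with X were 8 and 10: Col4a2, Col5a2, Col6a4, Col3a1, Col5a1, Col1a2 and Col9a3 lost the call and Col27a1 gained it. Leaving out replicate 1 gave 8 and 12, with Col6a4, Col5a1, Col9a3 and Col22a1 lost. No member changed direction. The difference of Col4a3 and Col4a4 was -0.15 on the CAST allele alone, where both are at or near 0, in place of 1.05, and with a pseudocount of 1 it was 0.17. That of Col4a5 and Col4a6 was 0.77 with a pseudocount of 1 and 0.04 on the CAST allele alone, in place of 1.28. Differences of Col4a1 and Col4a2 ran from 0.51 to 0.67 over the alternatives. Levels below 0.1 RPKM rest on 19 to 63 reads, and the reliance on reads over SNPs limits every comparison of levels between genes.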
